A study of Mus musculus with 9 samples.

Results

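The 35 genes described here encode the enzymes of the tricarboxylic acid (TCA) cycle, the enzymes that feed glutamine carbon into it and the carriers that exchange its intermediates across the mitochondrial membrane. They were chosen by name from the 53077 genes listed for each sample, and all 35 were found. By role they comprised 17 cycle enzymes, 3 cytosolic counterparts of cycle enzymes, 4 enzymes for the entry and exit of 4-carbon units, 6 enzymes of glutamine and glutamate use and 5 mitochondrial carriers.

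The cells were 5TGM1, a line of mouse multiple myeloma made to express Cas9 from a lentivirus, and RNA was sequenced in 3 groups of 3 biological replicates. The control gRNA-transduced cells carried a guide RNA (gRNA) against *Rosa26*, a locus that can be cut without harm to the cell. The *Slc2a1* gRNA-transduced cells carried a guide against *Slc2a1*, which encodes the glucose transporter GLUT1. The *Slc2a1/3/5/6/8* gRNA-transduced cells were first edited in *Slc2a3*, *Slc2a5*, *Slc2a6* and *Slc2a8*, with each guide marked by a fluorescent reporter, sorted and expanded, and then received the *Slc2a1* guide. All groups therefore shared Cas9, lentiviral transduction and a culture medium that supplied an alanyl-glutamine dipeptide and pyruvate. The reporter vectors, sorting and expansion are described only for the *Slc2a1/3/5/6/8* gRNA-transduced cells. In comparisons with that group, their effects and those of the added guides cannot be told apart. The edited cultures were pools of cells rather than single clones, so a transcript level is an average over edited and unedited alleles, and fewer cells with a transcript and less of it per cell cannot be told apart. The study asked whether known sugar transporters import a fluorescent glucose analog. The same RNA allows the question whether transcripts for glutamine use and the TCA cycle change when glucose transporters are targeted.

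In the TCA cycle, acetyl-CoA condenses with oxaloacetate to citrate, and carbon is released as carbon dioxide while electrons pass to the respiratory chain. Glutamine can refill the cycle: glutaminase converts it to glutamate, and glutamate dehydrogenase or a transaminase converts glutamate to 2-oxoglutarate. Pyruvate carboxylase offers another entry, from pyruvate to oxaloacetate, and malic enzymes and phosphoenolpyruvate carboxykinase take 4-carbon units out again. Cells with little glucose are known to be able to draw on glutamine for these reactions.

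A pair of sequence motifs was searched in the RefSeq promoters of the members (GRCm38.p6, 250 bases before to 50 bases after the start of the gene, 31 of the 35 members matched, all but *Idh3a*, *Sdhc*, *Me2* and *Gls2*). The first was TGATGNAA, a motif of the amino acid response factor ATF4, and the second was CACGTG, an E-box read by the MYC family among others. Both strands were read. TGATGNAA occurred in 2 of the 31 members, *Got1* and *Pck2*, against 3.97% of 32851 promoters of the same 300 bases. CACGTG occurred in 4 of the 31, *Ogdh*, *Pcx*, *Slc25a1* and *Slc25a13*, against 7.15% of those promoters. A gene was counted where any of its listed promoters held the motif, which was so for 1 of 2 listed for *Pcx* and 3 of 6 for *Ogdh*. Over the 39 promoters listed for the members, 2 held TGATGNAA and 6 held CACGTG. Of the 4 members with an E-box, *Slc25a1* fell and *Pcx* rose with all 5 guides, *Ogdh* did not pass the test and *Slc25a13* could not be tested, and neither member with the ATF4 motif passed. In that comparison 15.9% of all genes tested were called, and a link between motif and change was not tested. One stretch is printed for each of *Slc25a1*, *Pcx*, *Pck2* and *Got1*, members with a motif that are described below. Capitals mark the motif, which lies on the opposite strand in *Pck2* and *Got1*. The stretches are chr16:17928220-17928469 on the minus strand, chr19:4510222-4510245 on the plus strand, chr14:55540147-55540186 on the plus strand and chr19:43524684-43524723 on the minus strand.
Slc25a1: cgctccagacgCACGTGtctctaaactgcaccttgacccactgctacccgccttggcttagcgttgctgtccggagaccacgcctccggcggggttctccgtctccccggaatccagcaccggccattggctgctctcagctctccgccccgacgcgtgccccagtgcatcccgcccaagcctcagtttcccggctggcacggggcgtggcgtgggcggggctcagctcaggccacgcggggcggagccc
Pcx: ccCACGTGaggctttcaagaaaag
Pck2: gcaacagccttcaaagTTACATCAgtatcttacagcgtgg
Got1: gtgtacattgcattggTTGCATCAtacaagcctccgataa
A match is a description of the letters and no evidence of binding. The E-box starts 239 bases upstream of the *Slc25a1* start and 248 bases upstream of the *Pcx* start.

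Each sample held 21838805 to 30537105 estimated counts, and the 35 members together took 0.346% to 0.382% of them. Transcripts of the mitochondrial genome took 4.84% to 11.1%, with the highest share in *Slc2a1/3/5/6/8* gRNA replicate 1. That library also stood furthest from the other replicates of its group, with a chi-square per degree of freedom of 75.6 and 111 against them, where the other replicate pairs lay between 20.8 and 59.5. The summed TPM of the members was 1354 in it and 1482 to 1902 in the other samples. Of the targeted genes, *Slc2a1* itself gave -0.21 on the log2 scale with its own guide alone (adjusted p = 0.544) and -0.66 with all 5 guides (adjusted p = 0.029). In this test the *Slc2a1* transcript by itself did not mark the cells that carried only the *Slc2a1* guide. Control replicate 1 had 198 scaled CPM of *Slc2a1* (counts scaled to library size) and the other control replicates 95.2 and 94.0, and without it the values were 0.04 and -0.41 (adjusted p = 0.95 and 0.222). The call with 5 guides was also lost without control replicate 3 (-0.68), *Slc2a1/3/5/6/8* gRNA replicate 1 (-0.56) or replicate 3 (-0.51). With 5 guides *Slc2a8* changed by -1.22 (adjusted p = 0.000309) and *Slc2a6* by -0.67 (adjusted p = 0.0366), while *Slc2a3* had 0.27 (adjusted p = 0.259). *Slc2a5* changed by 2.65 (adjusted p = 0.00478) but had few counts, 6, 6 and 10 in control and 29, 36 and 51 with 5 guides. Its mean was 0.226 TPM in control and 1.0 TPM with 5 guides. Of 6 plasma cell markers 5 reached a mean of 1 TPM, all but *Tnfrsf17*, and their summed TPM ran from 653 to 906 in control, 608 to 729 in *Slc2a1* gRNA and 635 to 821 in *Slc2a1/3/5/6/8* gRNA replicates. Among them *Jchain*, the joining chain of secreted antibody, fell by 1.33 on the log2 scale with the *Slc2a1* guide (adjusted p = 0.00529) and rose by 0.59 with all 5 (adjusted p = 0.0348), and the edited groups differed by 1.92 (adjusted p = 0.000221). Of 16 markers of B, T, myeloid, stromal or epithelial cells, 15 stayed at or below 1.65 TPM in every sample. The exception, *Epcam*, had 266 to 322 TPM in control, 125 to 162 in *Slc2a1* gRNA and 89.2 to 123 in *Slc2a1/3/5/6/8* gRNA replicates. *Epcam* fell by 0.82 and by 1.39 on the log2 scale in the respective comparisons with control. Between the edited groups *Epcam* had -0.57 (adjusted p = 0.0246). Among the low markers *Pdgfra* was called lower with 5 guides, at -6.41 against control (adjusted p = 0.0189) and -7.46 against *Slc2a1* gRNA-transduced cells (adjusted p = 0.0304). The part of the *Jchain*, *Epcam*, *Pdgfra* and mitochondrial differences in the results below was not tested.

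The pathway was expressed almost completely. TPM, an abundance scaled by transcript length and by sequencing depth, allows levels of different genes to be compared. In the control replicates 33 of the 35 members had a mean of at least 1 TPM, 30 of at least 10, 15 of at least 50 and 3 of at least 100, with a median of 40.8 TPM. The highest were *Got2*, the mitochondrial aspartate transaminase, at 156 ± 19.0 TPM (SD, n = 3) and *Cs*, citrate synthase, at 153 ± 16.2 TPM (SD, n = 3), which differ by less than their spread. *Idh3g*, a subunit of the NAD-dependent isocitrate dehydrogenase, followed at 108 ± 1.28 TPM (SD, n = 3).

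**Figure D1:**
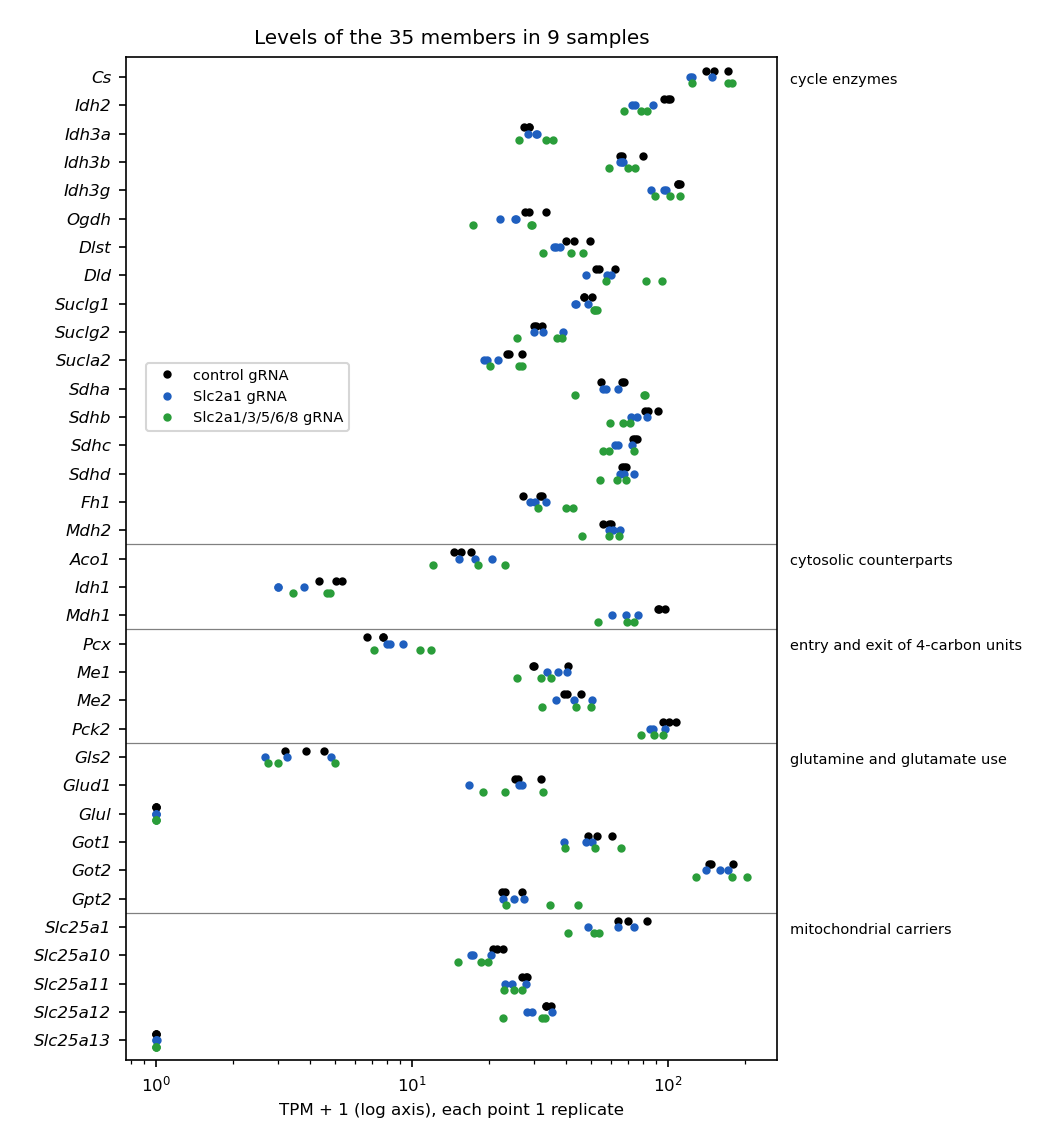
TPM + 1 on a log axis for the 35 members in each of the 9 samples, grouped by role, with 1 point per replicate coloured by group. *Got2* and *Cs* lie highest, *Glul* and *Slc25a13* lie at the left edge in every sample, and *Slc2a1/3/5/6/8* gRNA replicate 1 is often the lowest green point.

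A pair of members was missing. *Glul*, glutamine synthetase, which makes glutamine from glutamate, had 0 counts in all 9 samples, and 3 counts would have corresponded to 0.0931 to 0.13 TPM. *Slc25a13*, an aspartate-glutamate carrier of the malate-aspartate shuttle, had 1 count in 1 sample and 0 in the other 8. None of 72 ribosomal protein genes was at 0 in all samples, but the annotation behind the files is not given in the sources used here, so *Glul* is described only as listed at 0. The other aspartate-glutamate carrier, *Slc25a12*, had at least 21.7 TPM in every sample.

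Where the pathway has paired enzymes, the same isoform led in 9 of 9 samples, with no test made. *Idh2*, the mitochondrial NADP-dependent isocitrate dehydrogenase, exceeded its cytosolic counterpart *Idh1* by a median of 27.2 times in TPM, with a range of 20.4 to 36.6 times. *Gpt2*, the mitochondrial alanine transaminase, exceeded the cytosolic *Gpt* by a median of 7.3 times. *Pck2*, the mitochondrial phosphoenolpyruvate carboxykinase, had at least 77.3 TPM in every sample, and the cytosolic *Pck1* was listed at 0 in all of them. The leads were smaller for *Got2* over *Got1*, at a median of 3.2 times, for *Suclg2* over *Sucla2*, the GTP- and ATP-specific succinyl-CoA synthetase subunits, at 1.38 times, for *Me2* over *Me1* at 1.26 times and for the cytosolic *Mdh1* over the mitochondrial *Mdh2* at 1.25 times.

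Changes between groups were tested on counts with edgeR's quasi-likelihood test, and 33 of the 35 members passed its filter on low counts. A member was called changed when its adjusted p over all 13834 genes tested was under 0.05. Sample values below are counts scaled to the effective library size given by TMM (scaled CPM), which suit the comparison of 1 gene between samples and not of different genes. Both comparisons with control use the same 3 control replicates, so they are not independent of each other.

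Targeting *Slc2a1* alone changed none of the 33 members by this test, while 4.64% of all genes tested were called and 2.25% were called higher. At an unadjusted p under 0.05 there were 8 of the 33 members, and 3037 of the 13834 genes. DESeq2 called 2 members and 1255 of the 13834 genes, and limma on TPM called 0 members and only 4 of 11093 genes. The members' log2 fold changes had a median of 0.05, with 18 above and 15 below 0, and the median over all genes was -0.001. They ran from -0.71 for *Idh1* to 0.41 for *Pcx*, with a median standard error of 0.11.

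With all 5 guides, 5 of the 33 members changed, or 15.2%, against 15.9% of all genes tested. The members' share was thus near that of all genes. Of these 5, *Dld*, *Pcx* and *Gpt2* rose, where 8.49% of all genes were called higher, and *Mdh1* and *Slc25a1* fell, where 7.44% were called lower. The members' median log2 fold change was 0.00 and that of all genes 0.007. Between the *Slc2a1/3/5/6/8* and the *Slc2a1* gRNA-transduced cells 1 of 33 members changed, *Slc25a1*, or 3.03% against 2.31% of all genes, with a median of -0.04 for members and 0.003 for all genes. Without *Slc2a1/3/5/6/8* gRNA replicate 1, the library that stood apart, the same 5 members passed against control, while *Slc25a1* no longer passed against the *Slc2a1* gRNA-transduced cells. Against control 2 members passed without control replicate 1, control replicate 3 or *Slc2a1/3/5/6/8* gRNA replicate 3, and 3 without control replicate 2. In these fits the calls over all genes were 631, 736, 877 and 994 in that order, against 2204 with all samples.

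**Figure D2:**
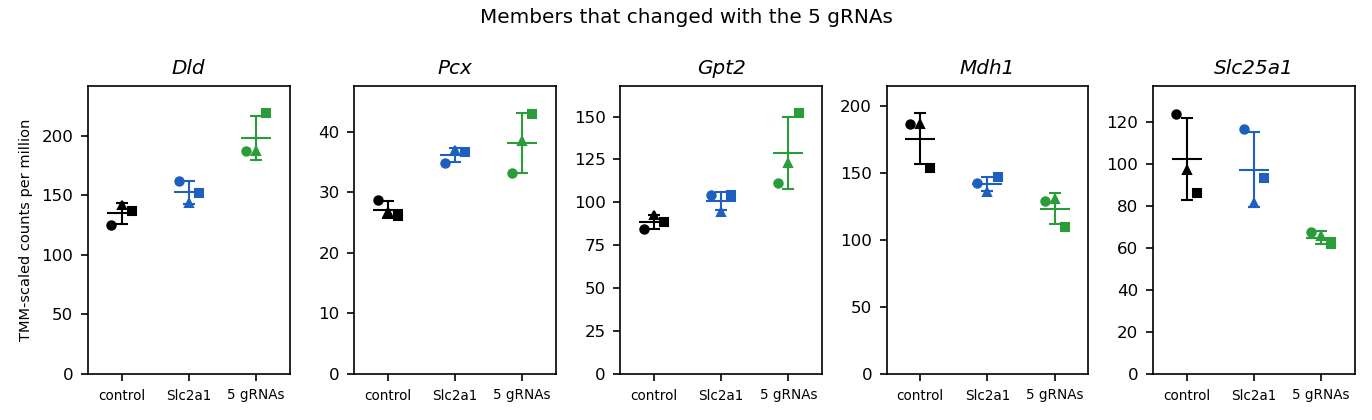
Scaled CPM of the 5 members that changed with all 5 guides, by group, on axes that start at 0. Circles, triangles and squares are replicates 1, 2 and 3, the long horizontal bar is the mean and the vertical bar is 1 SD (n = 3). In each panel the green *Slc2a1/3/5/6/8* gRNA points lie entirely above or entirely below the black control points.

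Among the 17 cycle enzymes, 1 changed with all 5 guides, or 5.88% against 15.9% of all genes, and none with the *Slc2a1* guide, against 4.64% (3 at an unadjusted p under 0.05, and 0 in DESeq2). *Dld* encodes dihydrolipoamide dehydrogenase, the subunit shared by the pyruvate, 2-oxoglutarate and branched-chain keto acid dehydrogenase complexes (chr12:31331277-31351453, minus strand, GRCm38). It stood at 125, 142 and 137 scaled CPM in control, 162, 143 and 152 in *Slc2a1* gRNA and 187, 187 and 219 in *Slc2a1/3/5/6/8* gRNA replicates. All edited replicates were above all control replicates, and the groups did not overlap. The log2 fold change with all 5 guides was 0.55 (SE 0.11, adjusted p = 0.00774), and with the *Slc2a1* guide it was 0.17 (SE 0.11, adjusted p = 0.39). The direct difference between the edited groups was 0.37 (adjusted p = 0.0991). The call with 5 guides was lost without control replicate 1 (0.50) or control replicate 3 (0.53).

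The partners of *Dld* in the 2-oxoglutarate dehydrogenase complex did not rise with it. *Ogdh*, the first enzyme of that complex, had 113, 114 and 112 scaled CPM in control and 85.4, 104 and 102 with 5 guides, a log2 fold change of -0.22 (adjusted p = 0.201). *Dlst*, its second enzyme, varied by 1.15 times in scaled CPM over the 9 samples. *Sdha*, the catalytic subunit of succinate dehydrogenase, varied by 1.1 times in scaled CPM and by 1.9 times in TPM between its lowest and highest sample and had a log2 fold change with 5 guides of 0.00 (95% interval -0.22 to 0.22). *Cs*, which carries out the first step of the cycle, varied by 1.21 times in scaled CPM. Of the other cycle enzymes, *Sdhb*, the iron-sulfur subunit of succinate dehydrogenase, came nearest to the threshold with 5 guides. Its scaled CPM was 90.6, 87.4 and 69.3 in control and 73.1, 60.9 and 63.4 with 5 guides, so the groups overlapped, and its log2 fold change was -0.32 (SE 0.11, adjusted p = 0.0607). *Fh1*, fumarase, had 0.28 (adjusted p = 0.0904) and *Idh2* had -0.30 (adjusted p = 0.096) in the same comparison.

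None of the 3 cytosolic counterparts, *Aco1*, *Idh1* and *Mdh1*, passed the adjusted threshold with the *Slc2a1* guide. All 3 had an unadjusted p under 0.05, as did 3037 of the 13834 genes, with *Aco1* above control and the others below. *Mdh1*, cytosolic malate dehydrogenase of the malate-aspartate shuttle (chr11:21556787-21572367, minus strand), had 187, 187 and 154 scaled CPM in control, 143, 136 and 147 in *Slc2a1* gRNA and 129, 131 and 110 in *Slc2a1/3/5/6/8* gRNA replicates. The 3 groups did not overlap, with the lowest values where all 5 guides were used. It fell by 0.51 on the log2 scale with 5 guides (SE 0.11, adjusted p = 0.0108), and its log2 fold change with the *Slc2a1* guide was -0.30 (SE 0.11, adjusted p = 0.136). The direct difference between the edited groups was -0.21 (adjusted p = 0.347) and passed in 0 of 17 alternatives. The call with 5 guides was lost without control replicate 1 (-0.48), control replicate 2 (-0.47) or *Slc2a1/3/5/6/8* gRNA replicate 3 (-0.46). For its mitochondrial counterpart *Mdh2* the value with 5 guides was 0.01 (adjusted p = 0.978).

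*Idh1*, cytosolic isocitrate dehydrogenase, is a low member, with 88 to 284 counts per sample. Its scaled CPM was 7.96, 10.3 and 7.19 in control, 4.23, 4.74 and 6.64 in *Slc2a1* gRNA and 7.25, 7.67 and 7.83 in *Slc2a1/3/5/6/8* gRNA replicates. The *Slc2a1* gRNA replicates were all below the other 6 samples. The log2 fold change against control was -0.71 (SE 0.21, adjusted p = 0.0746) with the *Slc2a1* guide and -0.16 (SE 0.21, adjusted p = 0.628) with all 5, and the difference between the edited groups was 0.55 (adjusted p = 0.182). It passed the threshold in 6 of 17 alternatives, among them DESeq2, and its adjusted p over them ran from 0.0157 to 0.335. *Aco1*, which is cytosolic aconitase and also iron regulatory protein, had log2 fold changes of 0.37 (adjusted p = 0.155) and 0.22 (adjusted p = 0.318).

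**Figure D3:**
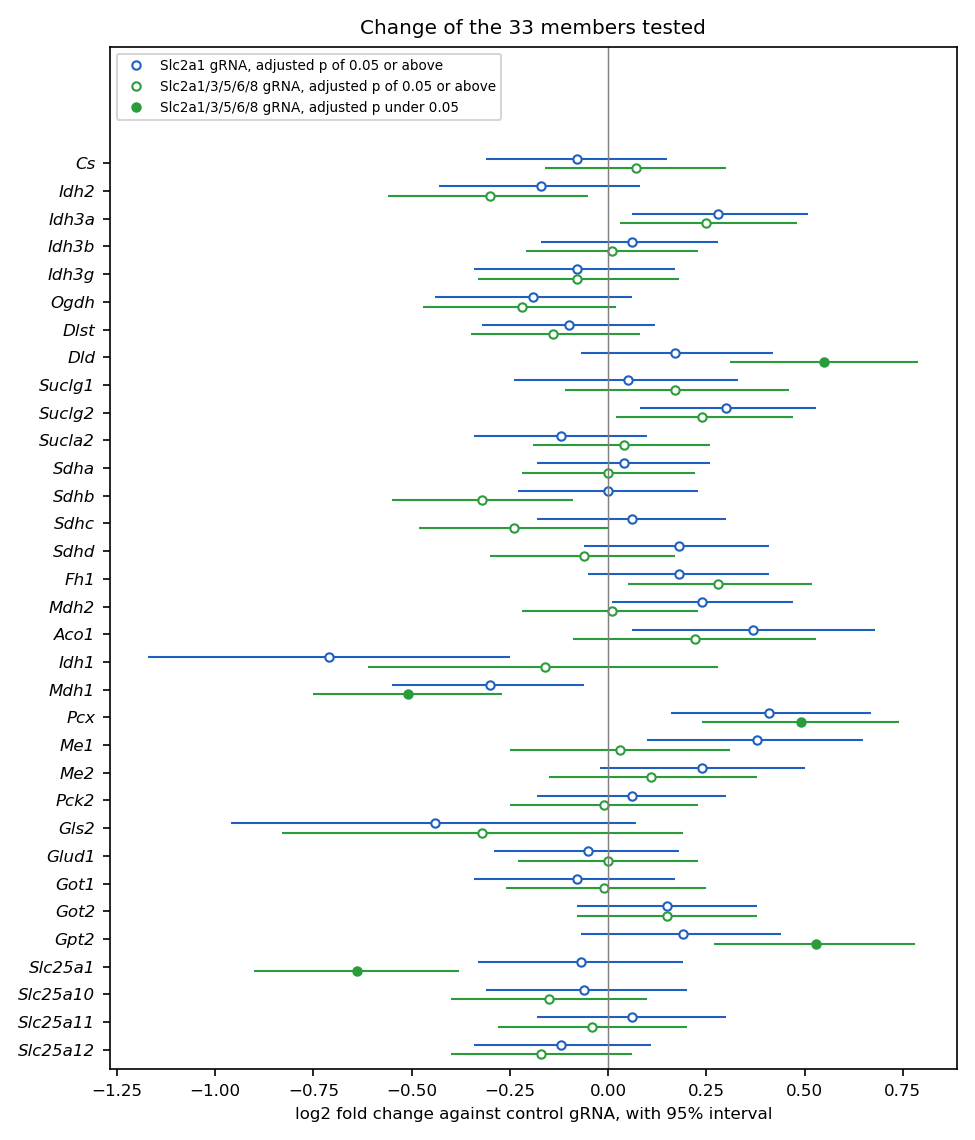
Log2 fold change against control gRNA of the 33 members tested, with 95% intervals, for the *Slc2a1* guide (blue) and all 5 guides (green). Filled points passed an adjusted p of 0.05 in edgeR's test. The 5 filled points are *Dld*, *Mdh1*, *Pcx*, *Gpt2* and *Slc25a1*, all for the 5 guides.

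Of the 4 enzymes that bring 4-carbon units in or out, pyruvate carboxylase rose with all 5 guides. *Pcx* (chr19:4510472-4621752, plus strand), whose E-box is printed above, had 28.7, 26.7 and 26.0 scaled CPM in control, 34.9, 37.0 and 36.6 in *Slc2a1* gRNA and 33.1, 38.5 and 43.0 in *Slc2a1/3/5/6/8* gRNA replicates. Every edited replicate exceeded every control replicate, and the edited groups overlapped each other. The log2 fold change was 0.49 with 5 guides (SE 0.12, adjusted p = 0.0159) and 0.41 with the *Slc2a1* guide (SE 0.12, adjusted p = 0.0635), and the difference between the edited groups was 0.08 (95% interval -0.18 to 0.33). With the *Slc2a1* guide it passed in 6 of 17 alternatives, with adjusted p from 0.0106 to 0.601. With 5 guides the call was lost without control replicate 2 (0.47), control replicate 3 (0.42) or *Slc2a1/3/5/6/8* gRNA replicate 3 (0.40).

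The malic enzymes, which convert malate to pyruvate, did not pass the test. *Me1*, the cytosolic form, had 117, 96.4 and 76.5 scaled CPM in control, 139, 120 and 116 in *Slc2a1* gRNA and 92.8, 102 and 98.3 in *Slc2a1/3/5/6/8* gRNA replicates. The control values spread widely and overlapped both edited groups, although within each replicate number the *Slc2a1* gRNA value was the higher one in 3 of 3 pairs. Its log2 fold changes were 0.38 (SE 0.13, adjusted p = 0.111) and 0.03 (SE 0.13, adjusted p = 0.89). The first passed in 2 of 17 alternatives, one of them the blocked fit of only these 2 groups (adjusted p = 0.0121), and its adjusted p over them ran from 0.0121 to 0.694. *Me2*, the mitochondrial form, had 0.24 (adjusted p = 0.274) and 0.11 (adjusted p = 0.559), with scaled CPM between 84.6 and 132 over all samples. When a sample was left out, these log2 fold changes ran from 0.15 to 0.3 and from 0.01 to 0.25. *Pck2*, which holds an ATF4 motif in its promoter as printed above, had 282, 273 and 223 scaled CPM in control, 300, 275 and 238 in *Slc2a1* gRNA and 284, 235 and 251 in *Slc2a1/3/5/6/8* gRNA replicates. These groups overlapped throughout, and the log2 fold change with 5 guides was -0.01 (95% interval -0.25 to 0.23).

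The enzymes that turn glutamine into 2-oxoglutarate showed no shared direction. Of the 5 tested, 1 changed with all 5 guides, where 15.9% of all genes did, and none with the *Slc2a1* guide, against 4.64% (0 at an unadjusted p under 0.05, and 0 in DESeq2), and the median log2 fold changes were 0.00 and -0.05. *Glud1*, glutamate dehydrogenase, had 73.1, 78.3 and 75.2 scaled CPM in control, 78.0, 64.2 and 76.7 in *Slc2a1* gRNA and 76.8, 74.5 and 75.3 in *Slc2a1/3/5/6/8* gRNA replicates. Apart from the low *Slc2a1* gRNA replicate 2 these values were nearly level, and the 95% intervals of the log2 fold change were -0.29 to 0.18 and -0.23 to 0.23. *Gls2*, a glutaminase, had 4.85, 6.67 and 6.49 scaled CPM in control, 3.37, 4.52 and 5.33 in *Slc2a1* gRNA and 4.76, 5.98 and 3.65 in *Slc2a1/3/5/6/8* gRNA replicates. It was the member with the widest error among the tested genes of this group, with 70 to 212 counts per sample, log2 fold changes of -0.44 (SE 0.24, adjusted p = 0.294) and -0.32 (SE 0.24, adjusted p = 0.384) and overlapping groups. Within each replicate number the edited value was below the control value in both comparisons. When a sample was left out, the log2 fold changes of *Gls2* ran from -0.67 to -0.34 and from -0.49 to -0.04. The value of -0.04 was the one without *Slc2a1/3/5/6/8* gRNA replicate 3.

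The transaminases pass the amino group of glutamate on and leave 2-oxoglutarate. *Gpt2*, which makes alanine from pyruvate in the mitochondrion (chr8:85492576-85527560, plus strand), had 84.3, 92.8 and 88.7 scaled CPM in control, 104, 94.5 and 104 in *Slc2a1* gRNA and 111, 123 and 152 in *Slc2a1/3/5/6/8* gRNA replicates. The 3 groups did not overlap, and the highest values were those with all 5 guides. *Gpt2* rose by 0.53 on the log2 scale with 5 guides (SE 0.12, adjusted p = 0.0112), and its log2 fold change with the *Slc2a1* guide was 0.19 (SE 0.12, adjusted p = 0.381). The direct difference between the edited groups was 0.34 (adjusted p = 0.136) and passed in 0 of 17 alternatives. The call with 5 guides was lost without control replicate 1 (0.53), control replicate 3 (0.46) or *Slc2a1/3/5/6/8* gRNA replicate 3 (0.42). *Got2*, the mitochondrial aspartate transaminase, had 387, 400 and 404 scaled CPM in control, 455, 426 and 443 in *Slc2a1* gRNA and 418, 434 and 473 in *Slc2a1/3/5/6/8* gRNA replicates. Both edited groups lay above control without overlap, but the log2 fold change was 0.15 in either comparison (adjusted p = 0.43 and 0.355). *Got1*, the cytosolic form and the other holder of an ATF4 motif, had 106, 103 and 101 scaled CPM in control, 110, 90.4 and 93.1 in *Slc2a1* gRNA and 97.8, 94.2 and 117 in *Slc2a1/3/5/6/8* gRNA replicates. These groups overlapped, with log2 fold changes of -0.08 (adjusted p = 0.724) and -0.01 (adjusted p = 0.979).

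**Figure D4:**
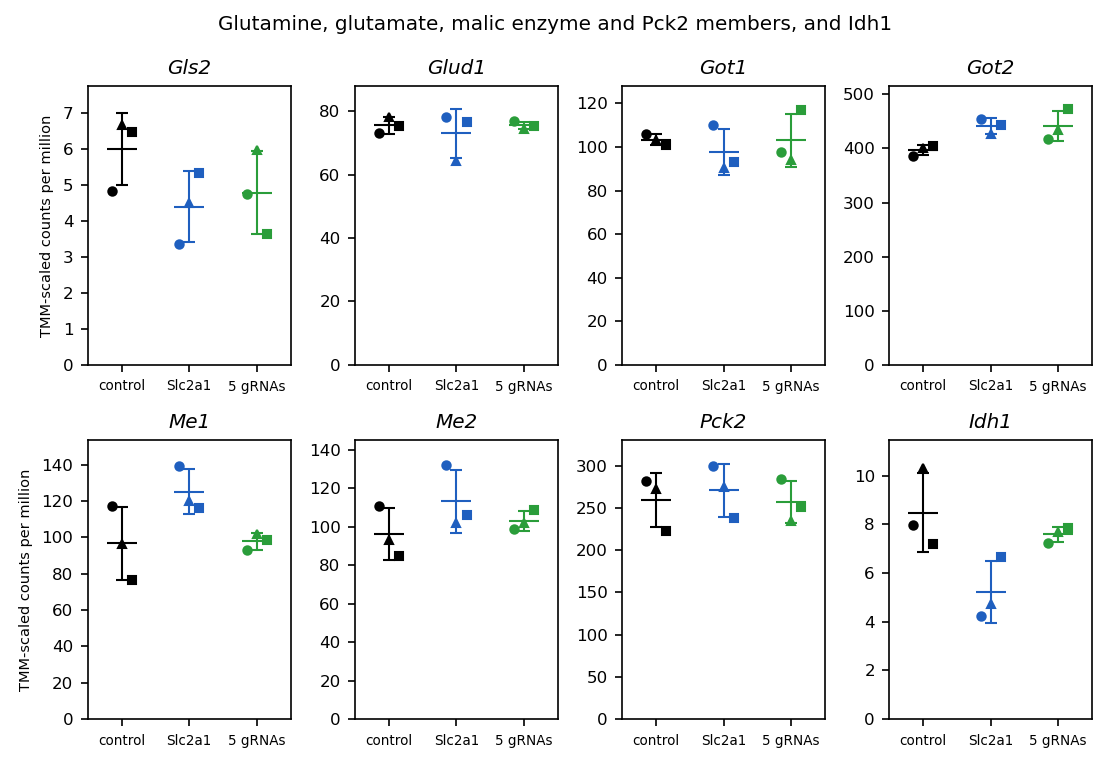
Scaled CPM by group for *Gls2*, *Glud1*, *Got1*, *Got2*, *Me1*, *Me2*, *Pck2* and *Idh1*, on axes that start at 0, with replicates 1, 2 and 3 as circles, triangles and squares, the mean as a long bar and 1 SD as the vertical bar (n = 3). The *Glud1* means lie between 73.0 and 75.5, and the *Idh1* points of the *Slc2a1* gRNA replicates lie below the rest.

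*Slc25a1*, the mitochondrial citrate carrier, which exports citrate for fatty acid synthesis, had the lowest log2 fold change of the members with 5 guides (chr16:17925223-17928219, minus strand). Its scaled CPM was 124, 97.1 and 86.4 in control, 117, 81.7 and 93.4 in *Slc2a1* gRNA and 67.6, 65.6 and 61.8 in *Slc2a1/3/5/6/8* gRNA replicates. The replicates with all 5 guides were close together and below the other 6 samples, which overlapped each other. It fell by 0.64 on the log2 scale against control (SE 0.12, adjusted p = 0.00478) and by 0.57 against *Slc2a1* gRNA-transduced cells (SE 0.12, adjusted p = 0.0312), while the *Slc2a1* guide gave -0.07 (SE 0.12, adjusted p = 0.784). The fall against control passed in 16 of 17 alternatives, including all 9 that left out a sample, and failed with limma on TPM. The fall against *Slc2a1* gRNA-transduced cells passed in 5 of 17, and without the replicate number as a block it did not pass. The other tested carriers, *Slc25a10* for dicarboxylates, *Slc25a11* for 2-oxoglutarate and malate, and *Slc25a12*, had log2 fold changes with 5 guides of -0.15, -0.04 and -0.17, and none passed.

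Genes around the members were described through 3 further lists of the pathway. Of 12 tested genes of pyruvate entry into the mitochondrion, 1 changed with all 5 guides, or 8.33% against 15.9% of all genes, and none with the *Slc2a1* guide, against 4.64% (2 at an unadjusted p under 0.05 and 1 in DESeq2). It was *Pdp1*, a phosphatase that activates pyruvate dehydrogenase, with 0.56 (SE 0.18, adjusted p = 0.0495), which passed in 2 of 17 alternatives. Of 20 tested genes of cofactor assembly and other cycle or shuttle steps, 1 changed with 5 guides, or 5.0% against 15.9% of all genes, and none with the *Slc2a1* guide, against 4.64% (3 at an unadjusted p under 0.05 and 1 in DESeq2). It was *Lipt2*, which transfers the lipoyl precursor to the glycine cleavage H protein. *Lipt2* had 2.79, 3.39 and 3.58 scaled CPM in control, 3.51, 6.52 and 6.88 in *Slc2a1* gRNA and 10.7, 9.53 and 8.61 in *Slc2a1/3/5/6/8* gRNA replicates. It rose by 1.58 on the log2 scale (SE 0.24, adjusted p = 0.00169), and it passed in all 17 alternatives.

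The last list held genes of glutamine uptake and of other uses of glutamine or glutamate. With all 5 guides 6 of the 22 tested genes changed, or 27.3% against 15.9% of all genes, 5 higher and 1 lower, with a median log2 fold change of 0.14, and the difference between these shares was not tested. The count was 9 with DESeq2, 4 with total count normalization and 0 with limma on TPM, where 2617 of 13834, 1963 of 13834 and 215 of 11093 of all genes were called. With the *Slc2a1* guide 2 of 22 changed, or 9.09% against 4.64% of all genes, with a median of 0.00, and the count was 5 with only the 2 groups compared, 1 with total count normalization and 0 with limma. Over all genes these fits called 2268 of 13590, 737 of 13834 and 4 of 11093. *Slc1a5*, a plasma membrane transporter of glutamine and other neutral amino acids, had 116, 92.1 and 108 scaled CPM in control, 184, 160 and 130 in *Slc2a1* gRNA and 163, 150 and 185 in *Slc2a1/3/5/6/8* gRNA replicates. All 6 edited replicates lay above control. *Slc1a5* rose by 0.59 (SE 0.14, adjusted p = 0.0307) and by 0.66 (SE 0.13, adjusted p = 0.00749) on the log2 scale, and the difference between the edited groups was 0.08 (95% interval -0.22 to 0.37). Under the alternatives the first call passed in 10 of 17 and was lost without any one control replicate, *Slc2a1* gRNA replicate 1 or *Slc2a1* gRNA replicate 2, with values of 0.49 to 0.63 there. The second passed in 14 of 17 and was lost without control replicate 2 (0.61) or *Slc2a1/3/5/6/8* gRNA replicate 3 (0.53).

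Others on this list act in biosynthesis. *Pfas*, a glutamine-using enzyme of purine synthesis, rose by 0.56 with the *Slc2a1* guide (SE 0.11, adjusted p = 0.0207) and had 0.12 with all 5 (adjusted p = 0.516), the difference between the edited groups being -0.44 (adjusted p = 0.0668). With 5 guides *Ppat*, which begins purine synthesis with glutamine, rose by 0.56 (adjusted p = 0.0139), and *Aldh18a1*, which begins proline synthesis from glutamate, rose by 0.53 (adjusted p = 0.00971). *Oat*, ornithine aminotransferase, fell by 0.49 (adjusted p = 0.00958). The transporter *Slc38a2* rose by 0.50 (adjusted p = 0.0373). *Slc3a2*, the heavy chain of several amino acid exchangers, rose by 0.37 (adjusted p = 0.0423) against control and by 0.63 against *Slc2a1* gRNA-transduced cells (adjusted p = 0.0147). With the *Slc2a1* guide its log2 fold change was -0.26 (adjusted p = 0.191), and every *Slc2a1* gRNA replicate lay below every control replicate. The calls of *Ppat* and *Aldh18a1* were lost without control replicate 1, control replicate 3 or *Slc2a1/3/5/6/8* gRNA replicate 3, and that of *Oat* without any one control replicate or *Slc2a1/3/5/6/8* gRNA replicate 3. *Slc38a2* passed in 7 and *Slc3a2* against control in 5 of 17 alternatives, and *Pfas* with the *Slc2a1* guide in 11 of 17.

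**Figure D5:**
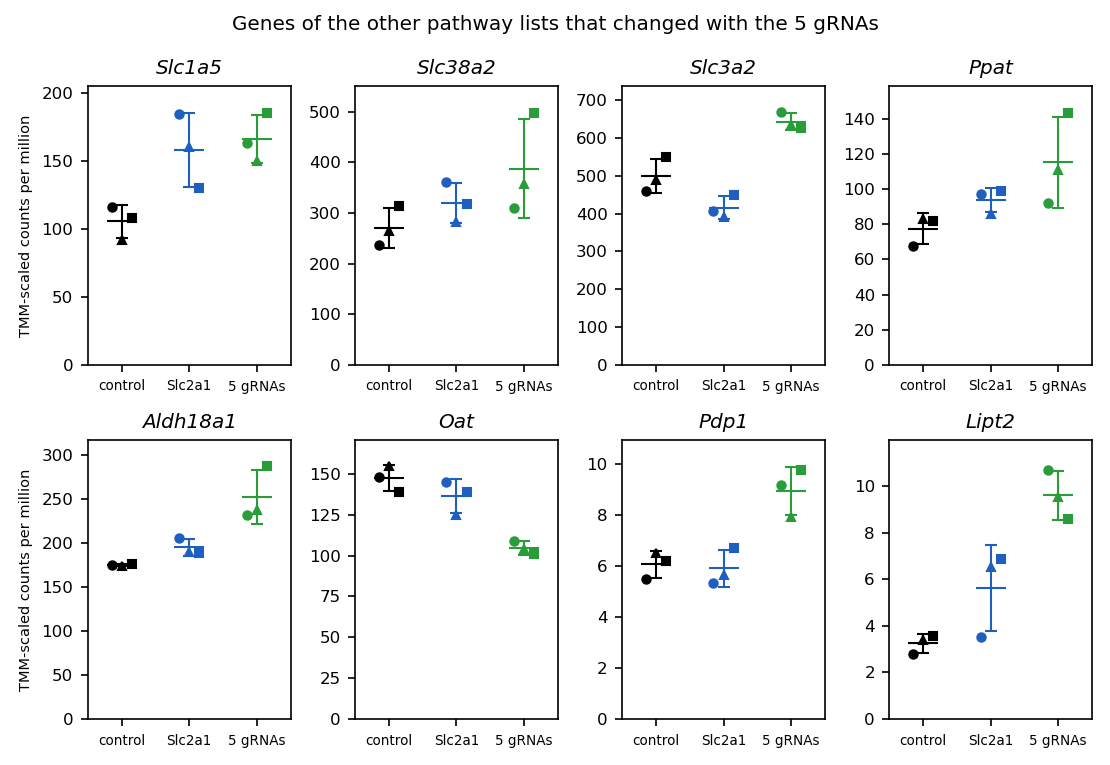
Scaled CPM by group for 8 genes of the 3 further lists that changed with all 5 guides, on axes that start at 0, with replicates 1, 2 and 3 as circles, triangles and squares, the mean as a long bar and 1 SD as the vertical bar (n = 3). *Oat* is the only one of the 8 with its *Slc2a1/3/5/6/8* gRNA points below control.

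For the *Slc2a1* guide the number of members called changed with the samples in the fit. When only the *Slc2a1* and control gRNA samples entered the fit, 7 members passed, *Suclg2*, *Idh3a*, *Aco1*, *Pcx* and *Me1* higher and *Idh1* and *Mdh1* lower, but 16.7% of the 13590 genes tested were then called too. When the replicate block was left out as well, 1 member passed, *Pcx*, and 572 of 13590 genes. For all 5 guides, limma on log2(TPM + 1) called 0 of the members and 1.94% of 11093 genes.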

How the data were processed

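RNA-seq of 5TGM1-Cas9 cells was analysed in 9 samples, 3 replicates in each of 3 groups taken from the labels. The authors deposited a gene table per sample with estimated counts and TPM, made with Salmon 1.5.1 according to the submitters' processing notes. The genome build and annotation they used are not given in the sources used here, nor is the use of strand in counting. Coordinates were taken from the GENCODE annotation of GRCm38 and promoter sequences from RefSeq (GRCm38.p6). Exons overlap genes on the other strand over 9.0% of their length for *Got2*, 8.9% for *Slc25a11*, 6.6% for *Slc25a10*, 3.5% for *Glul* (and 2.8% on the same strand), 2.8% for *Gls2* and 2.0% for *Mdh1*, so reads there may not be told apart.

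Estimated counts were rounded and tested in edgeR 4.0.16 (R 4.3.3) with the quasi-likelihood test, TMM normalization, the default filter on low counts, all 9 samples in 1 fit and the replicate number as a block, with Benjamini-Hochberg adjustment over 13834 genes. The block follows the paired test that the study names. Same-numbered samples deviated together in the *Slc2a1* gRNA and control groups (correlations 0.15, 0.11 and 0.22), less so in the *Slc2a1/3/5/6/8* gRNA and control groups (0.16, -0.06 and 0.13), and not in the edited groups (-0.11, -0.03 and -0.04). Standard errors and 95% intervals were derived from the F statistic. No 2 samples of a group agreed within sampling noise. TPM was used for levels of different genes, and in limma 3.58.1 as log2(TPM + 1) for genes with a mean of at least 1 TPM. Other alternatives were DESeq2 1.42.0, total count normalization, no filter, at least 10 counts in every sample, no replicate block, only the 2 groups compared, and leaving out each sample. The scripts were tested on simulated data.

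Genes named are all members by level, those with an adjusted p under 0.05, the members of glutamine use and 4-carbon exchange whatever their p, and up to 4 genes of each further list with the smallest adjusted p, with *Slc38a2*, *Slc3a2* and members near the threshold added after their values were seen. The members and lists were chosen with earlier results of these data known. Counting error alone is covered by the limit of 3 counts.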

Additional observations from a re-analysis of the deposited data

How the results depend on the processing

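The number of members changed with the *Slc2a1* guide was 0, and it was 2 with DESeq2, 1 with total count normalization, 2 when low counts were not filtered, 7 with only the 2 groups compared, 1 with only the 2 groups and no replicate block, an alternative chosen after seeing the data, and 0 to 3 when a sample was left out. Over all genes 642 of 13834 were called by the edgeR test above, 1255 with DESeq2 and 737 with total counts. Without the filter 1448 of 26457 were called. With only the 2 groups 2268 of 13590 were called, and 572 without the block as well. Leaving out a sample gave 11 to 1291 calls. The number of members was 3 without *Slc2a1/3/5/6/8* gRNA replicate 1 (*Idh1*, *Pcx* and *Me1*), where 1291 of 14531 genes were called. It was 1 without *Slc2a1/3/5/6/8* gRNA replicate 3 (858 of 14308 genes) or *Slc2a1* gRNA replicate 3 (943 of 14553 genes). With all 5 guides the number of members was 5, with or without the replicate block, 6 with DESeq2, total counts or the stricter count minimum, which added *Sdhb*, 0 with limma, and 2 to 5 when a sample was left out (2 without control replicate 1, control replicate 3 or *Slc2a1/3/5/6/8* gRNA replicate 3). Over all genes 2204 of 13834 were called with the block and 1885 without it, 2617 with DESeq2 and 1963 with total counts. The stricter minimum gave 2379 of 11715, limma 215 of 11093 and leaving out a sample 631 to 2559. Between the edited groups the number of members was 1 with the replicate block and 0 without it, 2 with DESeq2, 0 with total counts, with the 2 groups alone under either design or with limma, and 0 to 1 when a sample was left out. Over all genes 319 of 13834 were called with the block and 129 without it, 776 with DESeq2 and 295 with total counts. The 2 groups alone gave 116 of 13131 with the block and 149 without it, and limma 15 of 11093. Leaving out a sample gave 42 to 383. The cause of these differences was not tested. Leaving out a sample also removes residual degrees of freedom.

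Sign was followed for the members given with full values alone. With total counts, where the median of all genes was -0.095 with the *Slc2a1* guide and -0.042 with 5 guides, *Me1* with 5 guides was -0.02 and *Pck2* with the *Slc2a1* guide -0.03. With limma, where those medians were -0.143 and -0.052, *Me1* was -0.11 and *Me2* -0.02 with 5 guides, and *Pck2* was -0.17 and *Dld* -0.02 with the *Slc2a1* guide. With no filter *Glud1* with 5 guides was 0.00. When a sample was left out, the ranges that crossed 0 with 5 guides were -0.09 to 0.18 for *Me1*, -0.09 to 0.09 for *Pck2*, -0.05 to 0.08 for *Glud1* and -0.12 to 0.08 for *Got1*. With the *Slc2a1* guide they were -0.11 to 0.04 for *Glud1* and -0.15 to 0.03 for *Slc25a1*, and between the edited groups -0.02 to 0.18 for *Pcx*. *Gls2* and *Idh1* had few counts, with standard errors of 0.24 and 0.21.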
